A study of Mus musculus with 4 samples.

Results

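The comparison described here is of a single pair of arrays: IMS/N hepatic stellate cells cultured with medium from adipose tissue-derived stem cells (ADSCs), without palmitic acid, against the same cells without that medium. IMS/N is a line made from stellate cells of normal 129/Sv mouse liver by infection with SV40 virus. The ADSCs came from inguinal subcutaneous fat of male C57BL/6J mice, 8 to 10 weeks old, dispersed with Liberase. The series holds 4 one-colour arrays, and every condition has 1 of them: control, PA (palmitic acid), ADSC medium, and PA with ADSC medium. The series title names ADSCs and stellate cells activated by PA as its subject. All 4 cultures were IMS/N cells. The 2 arrays without PA give the main comparison, and the 2 arrays with PA give the same contrast a second time on other RNA. Not given in the sources used here are the dose of PA, the times, the number of cultures behind an array, and what medium the control and PA cultures received in place of that from ADSCs. There is 1 array a side, so no test was run, and each difference describes these libraries.

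Stellate cells store retinoids in healthy liver and turn into contractile, matrix-producing myofibroblasts when liver is injured. The contractile proteins of that state, smooth muscle actin (Acta2) first among them, are switched on by serum response factor with its actin-sensing cofactors, which binds the CArG box, a run of A and T letters between CC and GG. Medium from stromal cells of fat carries growth factors, cytokines, prostaglandins and used-up nutrients, and each of these acts through receptors or sensors that stellate cells have.

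Of 41146 probes with a value on every array, 28542 were well above background on at least 1 of the 2 arrays, and they gave 18198 genes with a usable value of 26793 gene names. Levels are log2 intensities, quantile-normalized over the 4 arrays. Differences are the ADSC-medium array minus the control array on that scale, and 1 is a 2-fold difference. A gene well above background on only 1 array has a bound, written "at least". Of the 18198 genes, 97 (0.533%) had at least a 2-fold higher level with ADSC medium, and 22 (0.121%) a level lower by that factor. Of these, 80 and 18 were well above background on both arrays. At 1.5-fold the counts were 420 (2.31%) and 234 (1.29%), and 4 genes (0.022%) were past 4-fold upward. The median over all genes was -0.01, with an SD of 0.25 over genes. Both groups held many dim genes: 46 of the 97 higher genes had a control level under 4 and 14 a level of 8 or more, while 8 of the 22 lower genes lay in each of these ranges.

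**Figure D1:**
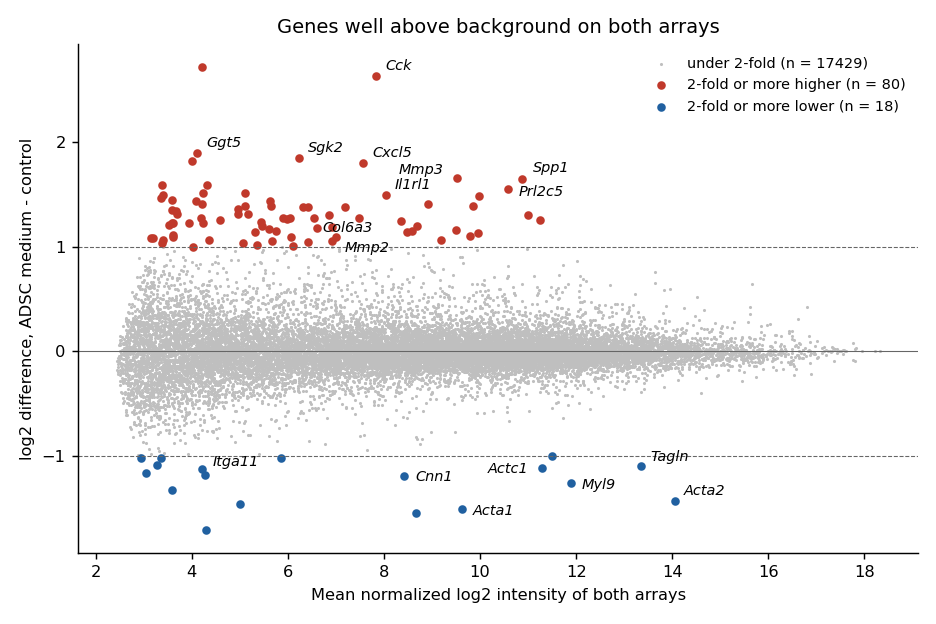
Each point is a gene well above background on both arrays, with its mean normalized log2 intensity across and the difference between ADSC medium and control (log2) up; dashed lines mark 2-fold. The 80 higher genes spread from dim to bright levels, and the contractile genes Acta2, Tagln, Myl9, Actc1, Acta1 and Cnn1 are 6 of the 8 genes with a control level of 8 or more past the lower line, the others being Klhl30 and Slc1a6.

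The measurement error can be read from probes printed on 10 spots of each array. Among those detected on both arrays, a difference between single spots had an SD of 0.418 under a level of 3 (8 probes), 0.243 from 3 to 5, 0.125 from 5 to 7, 0.081 from 7 to 9, 0.066 from 9 to 11 and 0.058 above. It covers the array and not the cultures, and the number of arrays limits the precision. Arrays were alike in quality: 67.5% to 70.0% of probes were well above background, no spot was saturated, and 1 slide in 1 scan held them all.

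The cells' identity was checked by their markers. Of 20 stellate markers on the array, 14 were well above background on each array; Pdgfrb stood at 12.39 on the control array and 12.74 with ADSC medium. Lrat, Reln, Rgs5, Hgf, Hand2 and Gfap, several of them marks of quiescent stellate cells, were not well above background on any array. Des, a classical rodent stellate marker, was dim at 3.63 and 3.47. Markers of other cell types were detected in part: on control 4 of 11 hepatocyte, 7 of 13 macrophage, 7 of 12 endothelial and 12 of 18 adipose markers were well above background, among them Trf (7.41), Cd14 (9.08), Lyz2 (7.48), Vwf (8.99), Kdr (8.30) and Lpl (12.29). Of the defining ones, Alb, Apoa1 and Ttr of hepatocytes, Adgre1, Clec4f and Ptprc of macrophages, Pecam1 and Cdh5 of endothelium, and Adipoq, Plin1 and Lep of adipocytes were not well above background on any array. Detected on control were also 8 of 10 biliary or epithelial and 9 of 12 portal fibroblast or mesothelial markers, larger shares than of stellate markers. They include Msln (15.03, brighter than Pdgfrb), Thy1 (10.03), Krt7 (9.19) and Krt19 (8.52). Epcam, Cdh1, Upk3b, Wt1 and Upk1b were not well above background on any array. How far these markers separate stellate cells from those types was not tested.

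The promoters below are shown because the bright genes that were lower with ADSC medium include several whose start region holds a CArG box, and because a lactate transporter and a chemokine among the higher genes carry the motif of a known regulator. They are RefSeq sequences on GRCm38.p6, 5′ to 3′ on the gene's strand and upstream of the start, and the motif is in capitals. For Acta1 (chr8:123894776-123894975, minus strand), Actc1 (chr2:114052876-114053075, minus strand) and Myl9 (chr2:156775264-156775407, plus strand) the capitals are the CArG box. For Acta2 (chr19:34255438-34255467, minus strand) they are a stretch 1 base off that pattern. For Slc16a3 (chr11:120949030-120949059, plus strand) they are the hypoxia response core ACGTG, and for Cxcl1 (chr5:90891045-90891244, plus strand) a pair of overlapping NF-kB sites.
Acta1: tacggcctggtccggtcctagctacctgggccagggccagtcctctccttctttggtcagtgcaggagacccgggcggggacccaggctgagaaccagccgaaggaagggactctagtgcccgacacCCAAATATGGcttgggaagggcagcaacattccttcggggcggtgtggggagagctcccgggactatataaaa
Actc1: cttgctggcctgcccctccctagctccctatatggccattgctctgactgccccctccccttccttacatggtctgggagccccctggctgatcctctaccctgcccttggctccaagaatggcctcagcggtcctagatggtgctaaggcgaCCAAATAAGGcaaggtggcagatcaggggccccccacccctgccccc
Myl9: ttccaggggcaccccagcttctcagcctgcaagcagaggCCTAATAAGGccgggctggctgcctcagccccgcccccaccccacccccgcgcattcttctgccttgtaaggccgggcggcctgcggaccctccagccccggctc
Acta2: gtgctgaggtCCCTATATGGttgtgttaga
Slc16a3: ggcagcggtgACGTGcgcgggggACGTGcc
Cxcl1: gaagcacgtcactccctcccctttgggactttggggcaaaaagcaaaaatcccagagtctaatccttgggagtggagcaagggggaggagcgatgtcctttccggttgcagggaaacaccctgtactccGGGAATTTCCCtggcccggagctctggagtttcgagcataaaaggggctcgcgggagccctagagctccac

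The CArG boxes begin 73 bases before the start in Acta1, 47 in Actc1 and 161 in Myl9. Over windows from 250 bases before to 50 after a start, searched on both strands, a CArG box was present in 488 of 27025 genes (1.81%) and in 201 of the 12036 compared genes that have a window (1.67%). It was present in 5 of the 17 genes with a window among those at least 2-fold lower (29.4%), and in 2 of 65 among those at least 2-fold higher (3.08%). The 5 were Acta1, Actc1, Myl9, Cyp1a1 and 1700009N14Rik, and the 2 were Egr2 and Ppbp. In Cyp1a1 the match CCTATAAAGG lies 32 bases before the start, where a TATA box would be. Of the 28 contractile genes with a window 6 held a box (21.4%), the other 3 being Cnn2, Myl6 and Vcl, which differed by -0.28, -0.22 and -0.11. With at most 1 base off the pattern, as in Acta2 at 84 bases before the start, 23.8% of all genes had a match. The motifs were looked for with the differences known, and a match describes the sequence only.

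Contractile genes were 6 of the 8 bright genes, those with a control level of 8 or more, that were past 2-fold lower with ADSC medium. Acta2 read 14.78 on the control array, 13.35 with ADSC medium, 14.58 with PA, and 13.56 with PA and ADSC medium. Both ADSC-medium arrays were therefore below both others. The difference was -1.43 with a standard error of 0.018 over 10 spots a side (chr19:34316060-34316119, mm9), 2.70-fold lower, and it was -1.02 on the arrays with PA. The single spots of this probe, before normalization, ran from 14.59 to 14.74 on the control array and from 13.20 to 13.32 with ADSC medium. Other Acta2 probes gave -1.16, -0.66, -0.33 and -0.17, so the size depends on the probe: the mean of detected probes was -0.75. The probe that gave -0.33 (chr19:34322995-34326249) is the second brightest, at 13.86 on control. Actin genes are close in sequence, and how far their probes share signal was not tested.

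Tagln, which encodes transgelin, read 13.90 on control and 12.80 with ADSC medium, and 14.14 and 13.50 on the arrays with PA. It was 2.14-fold lower without PA and 1.55-fold lower with it, and a further probe gave -1.40. Myl9, the regulatory light chain of smooth muscle myosin, read 12.52, 11.25, 12.23 and 11.27 on the control, ADSC-medium, PA, and PA with ADSC-medium arrays, 2.40-fold lower without PA. In the same order Cnn1, calponin, read 9.02, 7.83, 8.88 and 8.08, a 2.28-fold lower level. The skeletal and cardiac actins moved alike on these arrays: Acta1 read 10.39, 8.88, 10.04 and 9.05, and Actc1 read 11.84, 10.72, 11.54 and 10.82. For all of these 6 genes both arrays with ADSC medium lay below both arrays without it. In bulk RNA, fewer cells in a contractile state and less contractile RNA per cell cannot be told apart.

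**Figure D2:**
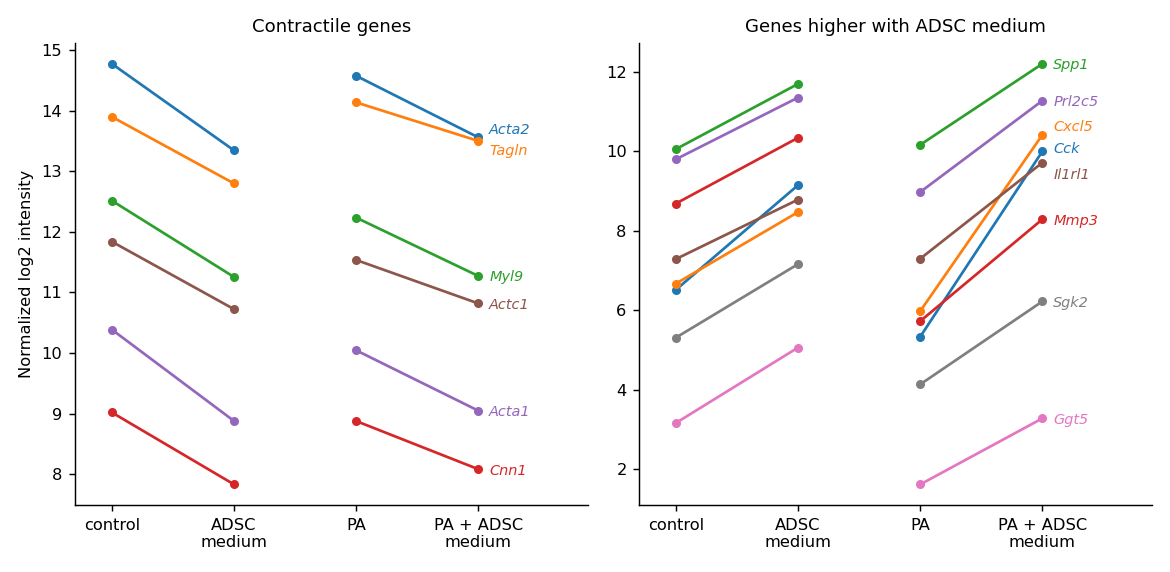
Normalized log2 intensity of contractile genes (left) and of genes higher with ADSC medium (right) on the 4 arrays, with a line joining each pair that differs by ADSC medium. Every contractile gene plotted is lower on the right end of both its lines, Acta2 at 13.35 against 14.78 and 13.56 against 14.58, and every gene of the right panel is higher.

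The list's median was -0.15 over 31 contractile genes with a value, beside -0.01 over all genes. Of the 31, 6 were past 1.5-fold downward (1.29% of all genes were) and 1 upward (2.31%). The 6 are those named above, and all were past 2-fold. A middle group was lower by less: Lmod1, leiomodin (-0.52), Cald1, caldesmon (-0.40), Tpm1 (-0.36), Tpm2 (-0.34) and the enteric actin Actg2 (-0.36). Cytoskeletal members that most cells use hardly differed, such as Flna (-0.02), Myh9 (0.01) and Tpm4 (-0.04). Mylk, the kinase that activates Myl9, went the other way at 0.46, and the dim integrin Itga8 (3.36 on control) was higher by 0.90. The serum response factor gene itself read 10.6 and differed by 0.08. Of its cofactor genes Mrtfa gave -0.06. Mrtfb gave -0.59 at a dimmer level (6.6), with other probes from -0.86 to 0.10 and a mean over probes of -0.34.

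Other genes of the lower side were less bright or belong to no list. Klhl30, a kelch-family gene, read 9.43, 7.88, 8.93 and 7.44 in the array order above and was 2.92-fold lower without PA. Slc1a6, a glutamate transporter, was 2.01-fold lower without PA and 2.11-fold lower with it, from a control level close to that of Actc1. Both genes thus differed by much the same in the pairs without and with PA. Itga11, a collagen-binding integrin of myofibroblasts, was 4.77 and 3.64 on the arrays without PA (-1.13), but its difference was -0.29 with the normexp background. Fcmr, an IgM receptor, was the gene with the largest lower difference among those measured on both arrays (-1.71, from 5.15 to 3.44), and with normexp it was -0.48. Sox11, a developmental transcription factor (-1.18, with other probes from -1.34 to -0.03), and Eprn (-1.33) lay at levels under 5, and with normexp they gave -0.35 and -0.21.

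The matrix genes did not go with the contractile ones. Collagen I, the main fibrillar collagen of scar, differed little on its brightest probes: Col1a1 read 15.09 and 14.96, and Col1a2 13.77 and 13.76. Their other probes gave -0.31 and -0.15 for Col1a1 and -0.35 for Col1a2. Col3a1 was higher by 0.37, at 12.27 and 12.64. The median of 22 collagen genes with a value was 0.04. Past 1.5-fold were 0 downward (1.29% of all genes were) and 2 upward (2.31%). Both belong to collagen VI, a beaded filament around cells. Col6a3 read 5.90 on control, 7.17 with ADSC medium, 5.89 with PA, and 7.77 with both, 2.42-fold higher without PA and 3.69-fold with it. Col6a1, at 10.39 on control, was 1.53-fold higher, and Col6a2, the third chain, gave 0.51 on one probe and 0.52 on another. Col5a2, a chain of collagen V, was lower by 0.51.

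Among 39 proteoglycans and matrix glycoproteins (median 0.08) 6 were past 1.5-fold upward (2.31% of all genes were) and 1 downward (1.29%). Spp1, osteopontin, a secreted phosphoprotein, was the brightest of those 6, at 10.05, 11.70, 10.16 and 12.20. Its difference was 1.64 with a standard error of 0.024 over 10 spots a side, 3.12-fold without PA and 4.11-fold with it. Vcan, versican, read 9.18 and 10.08, and its other 4 probes gave 0.77 to 1.16. Prelp (0.95), Dcn, decorin (0.76), Aspn, asporin (0.71) and Sparcl1 (0.62) were the other members at this size, and Thbs2 lay just below (0.58). Postn (-0.25), Sparc (-0.18) and Lox (-0.35), genes often high in myofibroblasts, lay below 0, and Mfap4 was at least 2.26-fold lower at the edge of detection.

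The list of matrix metalloproteinases also holds ADAMTS proteases, and its 20 genes with a value had a median of -0.01. Of these, 3 were past 2-fold upward, all matrix metalloproteinases (0.533% of all genes were), and 0 past 1.5-fold downward (1.29%). Mmp3, stromelysin, read 8.69 on control and 10.34 with ADSC medium, 5.73 with PA and 8.29 with both. The ADSC-medium array thus exceeded control 3.15-fold, and the PA with ADSC-medium array exceeded PA 5.91-fold but not control. Mmp2, a gelatinase, was 2.12-fold higher (6.45 and 7.54), and Mmp19 2.47-fold (6.19 and 7.50). The collagenase Mmp13 differed by 0.07 without PA and 1.68 with it. Of the genes for their inhibitors, Timp1 read 14.48 and 14.55, and the brighter Timp2 16.51 and 16.38.

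TGF-beta drives both contraction and matrix in these cells. Its ligand gene Tgfb1 differed by 0.14. Of 24 targets and regulators, 1 passed 1.5-fold upward (2.31% of all genes did) and 1 downward (1.29%), with a median of -0.08. Tgfbi, a secreted adhesion protein, was higher by 0.76, Ltbp2, a latent TGF-beta binding protein, lower by 0.63, and Ccn2 differed by -0.07. The feedback genes Smad7 (-0.42) and Pmepa1 (-0.43) and the ligand gene Tgfb2 (-0.48) were lower. Of 15 targets of YAP and TEAD, which respond to tension, 13 were lower by any amount (51.6% of all genes were), but only Ajuba (-0.59) passed 1.5-fold, and the median was -0.09. For the BMP list (21 genes, median -0.17) the median was -0.05 in the alternative nearest 0. Past 1.5-fold lay Fst, follistatin, downward (-0.67, at a level of 4.31), and upward Inhbb, an activin subunit (0.71, but 0.28 as the mean of its probes), and the antagonist Grem1, gremlin (0.60). The decoy receptor Bambi was higher by 0.52, while Id3 was lower (-0.42) and Id1 was not (0.13).

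**Figure D3:**
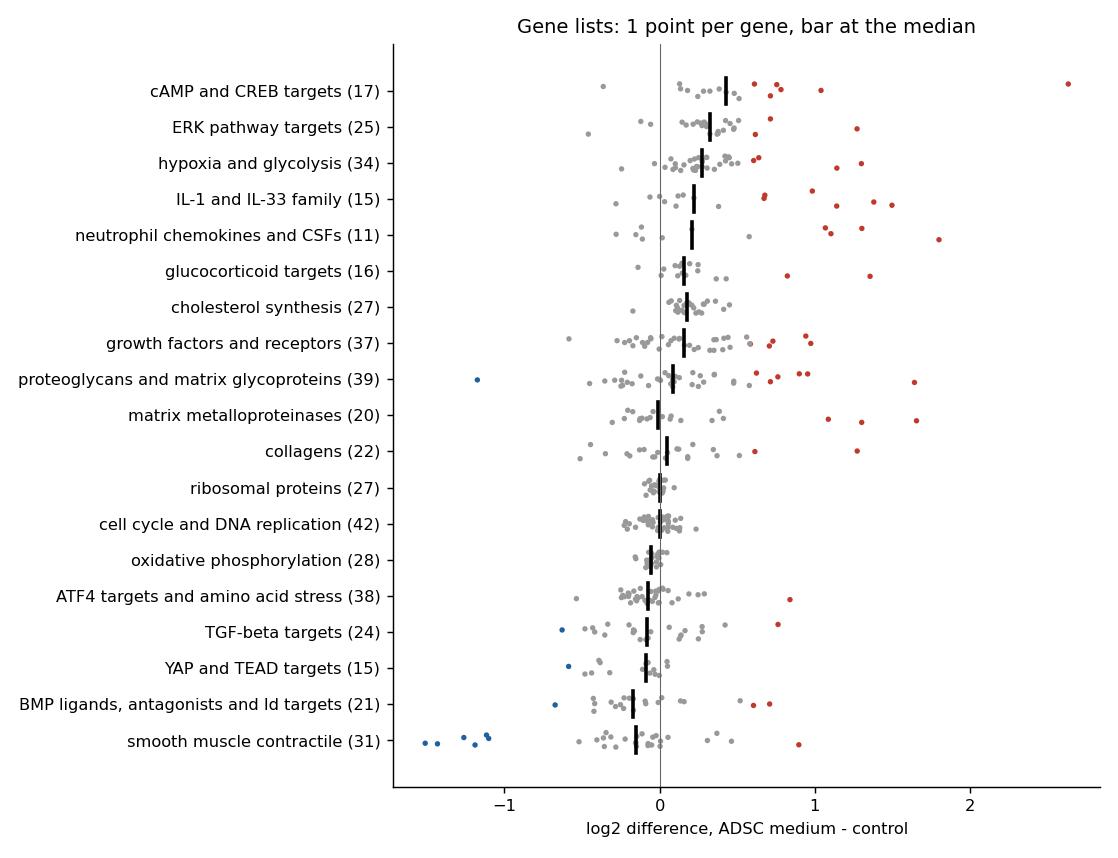
Members of 19 gene lists, each point a gene with a value (number in brackets) at its difference between ADSC medium and control on the log2 scale, red and blue past 1.5-fold, with a bar at the list's median. The medians run from -0.17 for the BMP list to 0.43 for the cAMP list, and the contractile list shows 6 genes apart from its other 25.

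Most listed genes induced by cyclic AMP through CREB were higher. Like the other lists, this one was chosen with earlier results of these data known, so its counts are a description. Of 17 with a value, 16 were above 0 (48.1% of all genes were), and 6 passed 1.5-fold, all upward (2.31% of all genes did). The median was 0.43, and 0.26 to 0.48 over the alternatives. Cck, which encodes cholecystokinin, a peptide hormone, had the largest difference of any annotated gene measured on both arrays. It read 6.52 on control, 9.15 with ADSC medium, 5.34 with PA, and 10.00 with PA and ADSC medium. It was 6.20-fold higher without PA and 25.4-fold with it (chr9:121399031-121399090, mm9), with a difference of 2.09 under normexp. A second Cck probe, at 2.23 on control, gave 0.34, so the mean of detected probes was 1.49. Pde4b, a phosphodiesterase that breaks down cyclic AMP, was 2.06-fold higher, with a further probe at 1.04 and one at 0.74. Rgs2, an inhibitor of G protein signalling, read 8.83 and 9.61, and Sik1, a salt-inducible kinase, 6.52 and 7.27. The orphan nuclear receptors Nr4a1 (11.72 and 12.43) and Nr4a2 (9.11 and 9.72) were higher by 0.71 and 0.61. On the arrays with PA, 11 of the 17 passed 1.5-fold upward (5.25% of all genes there did), with a median of 0.72. There Nr4a2 (2.63) and Gem (2.43 against 0.51 without PA) differed most after Cck.

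Targets of the ERK kinase pathway, the main route of growth factor receptors, were also mostly higher: 22 of 25 lay above 0 (48.1% of all genes did). Of the 25, 3 passed 1.5-fold upward (2.31% of all genes did), and the median was 0.32. Etv1, a transcription factor of this route, read 5.27 and 6.54, a 2.42-fold difference, and 4.70 and 6.35 with PA. Its other probe gave 1.82. The ERK phosphatase gene Dusp6 (10.22 and 10.93) and Ier3 (11.17 and 11.79) followed. The feedback inhibitors Spry2 (0.48, with another probe at 0.00), Spry1 (0.37) and Spry4 (0.30), the cyclin gene Ccnd1 (0.38) and Hmga2 (0.51) were higher by less. Egr2, an immediate early zinc finger gene, gave 1.27 with a standard error of 0.037 over 10 spots a side, from 6.84 to 8.11, and 1.21 with PA. The wider immediate early list had a median of 0.14, with 5 of 26 past 1.5-fold upward (2.31% of all genes were). Fos (0.13), Jun (-0.07) and Junb (-0.04) were near 0 and Atf3 was lower (-0.54).

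**Figure D4:**
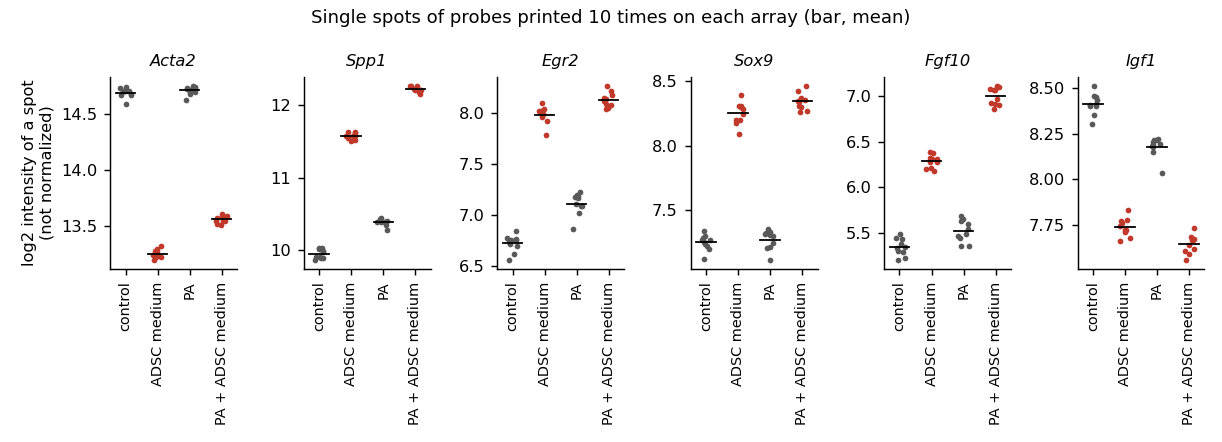
Single spots (log2 intensity, before normalization between arrays) of probes printed on 10 spots of each array, with a bar at the mean, on the 4 arrays (grey without, red with ADSC medium). For Acta2, Spp1, Egr2, Sox9, Fgf10 and Igf1 the spots of the ADSC-medium array do not overlap those of the control array; Acta2 runs from 13.20 to 13.32 against 14.59 to 14.74. The spread shown is that of spots and not of cultures.

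Among 177 probes on 10 spots that were detected on both arrays, the median standard error of a difference was 0.024. Of the 177, 7 passed 1.5-fold upward (2.10% of all compared probes did) and 2 downward (1.24%). Beside Spp1, Egr2 and Acta2 these were Sox9, a transcription factor (1.02, standard error 0.033, with other probes at 0.94 and 0.51), Fgf10 (0.94, standard error 0.037), the gap junction gene Gja1 (0.61, standard error 0.025), Pdgfra (0.59, standard error 0.018) and Igf1 (-0.67, standard error 0.024). The retinoic acid receptor gene Rarb was higher by 0.75 with a standard error of 0.034, from 10 spots on control and 8 with ADSC medium.

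Growth factor genes formed a second group with several higher members. Of 37 ligands and receptors, 5 passed 1.5-fold upward, Pdgfra among them (2.31% of all genes did), and 0 downward (1.29%). The median was 0.16. Fgf7, keratinocyte growth factor, read 7.66, 8.63, 7.21 and 8.47, and Fgf10 5.45, 6.39, 5.35 and 6.97. Both act on epithelial cells, and both arrays with ADSC medium exceeded both without. Fgf2 was higher by 0.73 without PA but by 0.21 with it, and its other probes ranged from 0.31 to 1.11. Angpt2, an angiopoietin, was higher by 0.71. Of Fgf7, Fgf10, Fgf2, Angpt2 and Pdgfra, only Fgf7 (0.82) stayed past 1.5-fold with the normexp background. The receptor gene Pdgfrb differed by 0.35 without PA and by 1.33 with it, where the PA array was the low one (11.46). In the IGF axis Igf1 was lower on all 4 of its probes (-0.91 to -0.67) and Pappa, a protease that frees IGFs, was lower by 0.76 at a level near 5.

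Several genes of the IL-1 and IL-33 family were higher. Of 15 with a value, 6 passed 1.5-fold upward (2.31% of all genes did), 0 downward (1.29%), with a median of 0.22. Il1rl1, which encodes the IL-33 receptor ST2 and its soluble decoy form, read 7.29 on control, 8.78 with ADSC medium, 7.30 with PA and 9.72 with both. It was 2.82-fold higher without PA and 5.34-fold with it, and its other probes gave 1.41 and 1.91. Il33 itself, a stored alarm cytokine, was 1.98-fold higher at a low level (4.20 and 5.18). Il1rn, the IL-1 receptor antagonist, was 2.60-fold higher (6.51 and 7.89; 2.44-fold with PA), and Il1r1, the receptor, 1.60-fold. Il1rl2, the IL-36 receptor, not well above background on control, has a bound of at least 0.67, and -0.08 with PA. Il18rap, a chain of the IL-18 receptor, was 2.21-fold higher. Downstream, the adaptor Myd88 gave 0.00, and the kinase family members Irak1 (0.03), Irak2 (0.15), Irak3 (0.38) and Irak4 (0.11, with another probe at 0.36) did not pass 1.5-fold.

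Neutrophil-recruiting chemokines and colony-stimulating factors were mixed. Of 11 list members with a value, 4 passed 1.5-fold, all upward (2.31% of all genes did), and 4 lay below 0 (51.6% of all genes did). The median was 0.21, and 0.02 over genes detected on both arrays. Cxcl5 read 6.67, 8.47, 5.98 and 10.42, 3.48-fold higher without PA and 21.6-fold with it (chr5:91190205-91190264, mm9). Cxcl1 read 9.23, 10.33, 9.79 and 12.33, 2.15-fold and 5.81-fold. Cxcl12, a chemokine of stromal cells and the brightest of the list, was lower by 0.28 (14.25 and 13.97), and Csf1 (-0.11), Il11 (-0.15) and Il17rc (-0.12) were also below 0. The other 2 past 1.5-fold were bounds at the edge of detection, Ppbp (at least 2.10-fold, 0.20 under normexp) and Csf3 (at least 2.47-fold, 0.15 under normexp), and Csf3 differed by -0.34 with PA. Of 30 NF-kB targets in general only Cxcl1 and Il33 passed 1.5-fold upward and Saa3, an acute-phase gene, downward (-0.85), with a median of 0.11. Ccl2 (0.22), Ccl7 (0.10), Nfkbia (0.02) and Tnfaip3 (0.11) hardly differed, and Il6 was higher by 0.58. The printed Cxcl1 promoter holds its overlapping NF-kB sites 71 and 70 bases before the start; 9.55% of all genes and 15 of 27 genes of the NF-kB list have such a site in the window. Ccl4, a chemokine of monocytes, was 2.86-fold higher at low levels (3.48 and 4.99) and read 7.71 and 8.89 with PA.

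Genes of hypoxia and glycolysis showed small differences in one direction. Of 34 with a value, 32 lay above 0 (48.1% of all genes did) and 4 passed 1.5-fold, all upward (2.31% of all genes did). The list's median was 0.26 (0.24 to 0.29 over the alternatives). Slc16a3, which encodes the lactate exporter MCT4, read 10.34 on control, 11.64 with ADSC medium, 11.55 with PA, and 12.26 with both, 2.46-fold higher without PA. Pdk1, a kinase that keeps pyruvate out of mitochondria, read 7.90, 9.04, 8.77 and 9.29, 2.21-fold higher without PA and 1.43-fold with it. Bnip3, a mitophagy receptor, was higher by 0.64 and Aldoc, an aldolase, by 0.61. Glycolytic enzymes of very high level were higher by less: Aldoa (0.42), Tpi1 (0.35), Ldha (0.30), Pkm (0.27), Pgk1 (0.25) and Gapdh (0.10). The glucose transporter gene Slc2a1 was higher by 0.44, Vegfa by 0.07, and Car9, an enzyme often used as a mark of hypoxia, was lower by 0.24. The core ACGTG, on either strand, was in the window of 21 of 31 genes of this list (67.7%). It was in that of 21.8% of all genes and 27.4% of compared genes. Among genes at least 2-fold higher 15 of 65 had it (23.1%), and among those at least 2-fold lower 6 of 17 (35.3%). Slc16a3 has it 27 and 14 bases before the start.

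Of 28 oxidative phosphorylation genes 25 were lower (51.6% of all genes were), with a median of -0.05 and no gene past 1.5-fold. The size of that median is under the spot SD even at the brightest levels (0.058), and its direction was not tested. Of 27 genes of cholesterol synthesis 26 were higher (48.1% of all genes were), again none past 1.5-fold. Their median was 0.18 (0.17 to 0.20 over the alternatives). Dhcr7 (0.45), Mvd (0.41) and Nsdhl (0.36) were the highest. Fatty acid synthesis and desaturation genes (28) had a median of 0.15, with Acsl3 at 0.49, Elovl5 at 0.45 and Scd1 at 0.37. Of 12 LXR targets and efflux genes, with a median of 0.00, 6 were higher (48.1% of all genes were) and 6 lower (51.6%). The transporters Abca1 (0.78, and 0.18 with PA) and Abcg1 (0.79, and 2.49 with PA) passed 1.5-fold, while Smpdl3a (-0.50), Apod (-0.23), Abcg2 (-0.15), Mylip (-0.13) and Nr1h3 (-0.11) were lower. Another Mylip probe gave -1.02. Of 16 glucocorticoid-responsive genes 15 were higher (48.1% of all genes were). Past 1.5-fold upward were 2 (2.31% of all genes were), Errfi1 (0.82) and Hsd11b1 (1.36). The defining targets Tsc22d3 (0.01) and Fkbp5 (0.12), however, were near 0.

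Several lists hardly differed. The 42 cell cycle genes had a median of 0.00 and ranged from -0.23 to 0.24. The 27 ribosomal protein genes had a median of 0.00, none beyond 0.10 in either direction, and the 24 unfolded protein response genes a median of 0.00, with only dim Derl3 (1.06, from 2.86) past 1.5-fold. The 38 ATF4 targets had a median of -0.07 with 29 lower (51.6% of all genes were). Only Stc2, stanniocalcin 2, passed 1.5-fold, upward (0.84). Of 38 interferon response genes only Rsad2, an antiviral gene, passed 1.5-fold (0.59), and Ifit3 (0.51) and Irf7 (-0.50) went in opposite directions. Housekeeping genes had a median of -0.02.

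The other lists are given by their medians and by the members past 1.5-fold. Of all genes, 2.31% passed that size upward and 1.29% downward. No member passed in the Wnt (25 genes, -0.09), Notch (15, -0.07), heat shock (20, -0.04), p53 (24, 0.15) or TIMP and plasminogen activator (10, 0.08) lists. Of 37 NRF2 and oxidative stress genes (median 0.07), 4 passed upward, the transferases Gsta1, Gsta2 and Gsta3 and the extracellular superoxide dismutase Sod3 (2.87 and 4.31). Of 16 prostaglandin genes (median 0.15), 2 passed upward: Ptgfr, the receptor for prostaglandin F (at least 0.94, not well above background on control), and Akr1b3, an aldose reductase (15.33 and 15.97), while Ptgs2 was higher by 0.27. Of 24 STAT3 targets (median 0.15), Hp passed upward and Saa3 downward. The retinoid list (15, -0.01) had Rarb past 1.5-fold, and the list of PPAR targets and fatty acid oxidation (28, 0.03) Fabp4. The hepatocyte (4 genes, -0.07) and endothelial (7, -0.12) markers had no member past 1.5-fold, and of 9 portal fibroblast and mesothelial markers (-0.01) only Mfap4 passed, downward.

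Some higher genes come in families of near-identical copies, which probes may not tell apart. The proliferins Prl2c3 (9.24, 10.73, 8.47 and 10.65 in the array order above) and Prl2c5 (9.80, 11.35, 8.98 and 11.28), placental-type hormones also made by growing fibroblasts, were 2.80-fold and 2.93-fold higher. The glutathione transferases Gsta1 and Gsta2 were higher by 0.70 and 0.61, and Gstt4 3.52-fold at low level (3.10 and 4.92). Of 15 cornified envelope genes (median 0.15), 8 were higher (48.1% of all genes were) and 7 lower (51.6%). The late envelope genes Lce1f (0.66) and Lce1e (0.70), the small proline-rich Sprr1a (7.72 and 8.97) and, as a bound, Sprr1b (at least 1.46) passed 1.5-fold upward, and the keratin gene Krt14 downward (-0.85). Lce1g (0.55) did not pass, and Lce1a1 (0.00), Lce1m (-0.07), Lor (-0.13) and Crct1 (-0.49) were not higher.

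Genes outside the lists make up most of the higher side: 70 of the 97 are in no pathway list. The brighter of them measured on both arrays include Slco4a1, an organic anion transporter (10.62 and 11.87; 9.21 and 12.90 with PA), Tmem45a (9.16 and 10.55), Enpp2, autotaxin, which makes lysophosphatidic acid (8.01 and 9.16), Mmd (9.39 and 10.52), Ugt1a6b (8.93 and 10.09), Rcan2, a calcineurin regulator (8.66 and 9.72), and Ranbp3l (8.20 and 9.61; 5.62 and 10.49 with PA). At lower levels stood Sgk2, a kinase (5.31 and 7.16, 3.61-fold), and Ggt5, a gamma-glutamyltransferase (3.16 and 5.06, 3.73-fold, with a difference of 0.48 under normexp). Haptoglobin, Hp, was not well above background on control and had at least a 5.02-fold higher level with the medium (2.41 and 4.75; a difference of 0.43 under normexp). A probe named NAP057072-1, which has no gene symbol here, had the largest difference of all (2.71, from 2.85 to 5.56), but 0.01 with PA and 0.62 under normexp.

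Markers of other cells give the following values beside these results. Of 12 adipose stromal or adipocyte markers with a value, 3 passed 1.5-fold upward (2.31% of all genes did). They were Pdgfra, Ly6a (12.38 and 13.01) and Fabp4, a fatty acid carrier (11.46 and 12.07). The list's median was 0.03, and 6 members were lower (51.6% of all genes were). Among the lower were the fat cell regulator Pparg (-0.45), Cidec (-0.45), the lipase Lpl (-0.28) and Cebpa (-0.21). Another Cebpa probe gave 0.52. The summed level of that list, on the log2 scale of summed intensities, was 14.51 on control and 14.82 with ADSC medium, and 14.37 and 14.79 with PA. Dpp4, Adipoq, Plin1, Cfd and Lep were not well above background on any array. Of 8 biliary or epithelial markers, Spp1 and Sox9 passed 1.5-fold upward, while Krt7 was lower (-0.88) and Epcam and Cdh1 were not well above background; the summed level was 11.26 and 12.21. Of 7 macrophage markers, only Cd14, a lipopolysaccharide co-receptor, passed 1.5-fold (0.73). Cd68 (0.47), Csf1r (0.23) and Cd5l (0.03) were higher by less, and Lyz2 (-0.37), Aif1 (-0.39) and Marco (-0.04) were lower. The summed level was 9.85 and 10.31, in which Cd14, the brightest of the 7 (9.08 on control), weighs most. The part of other cells in the differences was not tested.

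The normexp background, which shrinks differences of dim genes, moved further values above by over 1.5 times, none with a change of direction. Among higher genes it gave 0.40 for Ccl4, 0.29 for Il33, 0.55 for Il18rap, 0.46 for Hsd11b1, 0.44 for Gstt4, 0.25 for Sod3, 0.30 for Cysrt1, 0.16 for Derl3 and 0.25 for Lce1e. For Gsta1, Gsta2 and Gsta3 it gave 0.42, 0.27 and 0.06, and for the bound of Ptgfr 0.21. Fgf10 (0.49), Fgf2 (0.48), Rarb (0.48), Prelp (0.49) and Sik1 (0.49) fell short of 1.5-fold with it. Genes that it moved by less also fell short. Among them were Pdgfra (0.44), Angpt2 (0.57), Dcn (0.54), Nr4a2 (0.55), Aldoc (0.54), Rsad2 (0.48), Ltbp2 (-0.54) and Ajuba (-0.56). Etv1 (0.65), Pde4b (0.63), Col6a3 (0.78), Mmp19 (0.86) and Sgk2 (1.02) stayed past 1.5-fold. Among lower genes it gave -0.21 for Cyp1a1, -0.58 for 1700009N14Rik, -0.15 for Fst, -0.22 for Pappa, -0.14 for Saa3, -0.16 for Mfap4 and -0.56 for Krt14.

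The same contrast on the arrays with PA shares no array with the main one. Of the 97 higher genes 96 had a value there: 91 were higher (46.4% of all genes there were), 78 past 1.5-fold (5.25%) and 64 past 2-fold (1.75%). Of the 22 lower genes 20 had a value, and all 20 were lower (53.5% of all genes there were), 15 past 1.5-fold (3.72%) and 8 past 2-fold (0.507%). None of either group was 1.5-fold in the opposite direction. The median of the higher group was 1.27 without PA and 1.28 with it, and that of the lower group -1.18 and -0.95. Across the 17355 genes well above background on all 4 arrays, the differences of both pairs had a Pearson r of 0.49 and a Spearman rho of 0.38, as a description across genes, which share each array and are not independent.

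**Figure D5:**
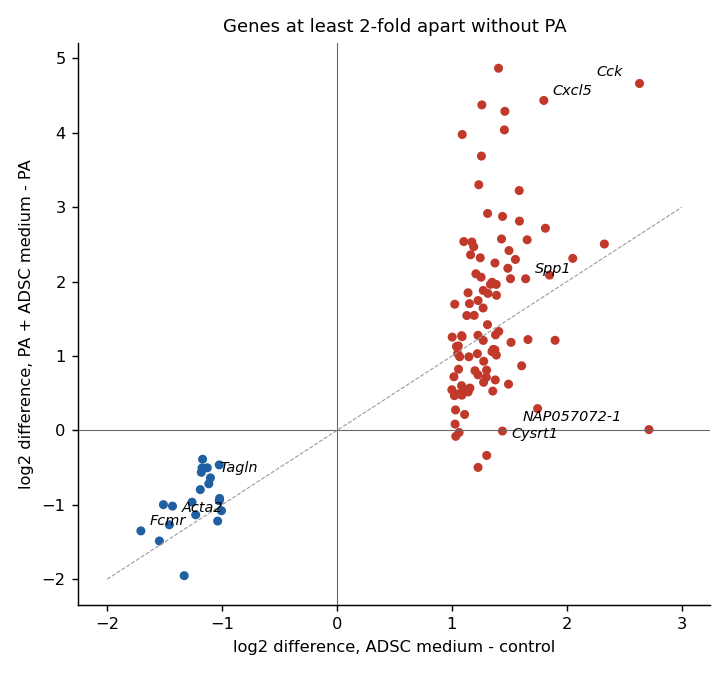
Genes at least 2-fold higher (red) or lower (blue) with ADSC medium without PA, by their difference without PA (across) and with PA (up), both on the log2 scale; the dashed line marks equal differences. All 20 lower genes with both values lie below 0 with PA, and 91 of 96 higher genes lie above it, while NAP057072-1 and Cysrt1 lie at 0.01 and -0.01.

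The sizes differed between pairs for single genes. Cxcl5, Cck and Ranbp3l (1.41 and 4.87) were more different with PA, and so were cAMP-responsive Nr4a2 and Gem. Cysrt1 (1.44 and -0.01) and Trem2 (at least 1.75 and 0.29) were different mainly without PA. The contractile genes Acta2, Acta1, Actc1, Cnn1, Tagln and Myl9 differed less with PA, by -1.02 to -0.64, against -1.51 to -1.10 without it. None of these differences between pairs was tested.

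The authors' deposited table of probes higher with PA than with PA and ADSC medium lists 920 probes, chosen on arrays that are not in the main comparison. Of its 617 probes that could be compared, 482 were lower with ADSC medium than in control (78.1%), where 53.5% of all compared probes were lower. Of the compared probes in the authors' deposited table, 66 passed 1.5-fold downward (10.7%, where 1.24% of all compared probes did) and 6 upward, and the median difference was -0.22.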

How the data were processed

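IMS/N RNA of 4 conditions was labelled with Cy3 and hybridized to 1 Agilent array each (design 014868, mm9; Feature Extraction 12.1.1.1, protocol GE1_105_Dec08). The deposited values are processed spot intensities, background-subtracted and detrended within each array, per the file headers. Quantile normalization by the authors is stated in the design text, and R 3.5.1 in the submitters' processing notes. Lists of probe names, 2 in all, came with the arrays.

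Here control spots and flagged outlier spots (82 to 104 an array) were dropped, and log2 intensities averaged per probe and quantile-normalized with limma 3.58.1 in R 4.3.3. Of 41174 probes, 28 lacked a value on some array. Well above background meant flagged so on over 50% of spots. A dim side was raised to the array's lowest such level (2.30 to 2.43). A gene is its probe with the highest mean. RefSeq accessions named 28688 probes; 12486 keep the array's name. Promoter windows matched 12036 of 18198 compared genes.

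With 1 array a side no test between conditions was run. Alternatives were 75th percentile scaling, quantile normalization over the 2 arrays, normexp background (offset 50), no filter on dim probes, well above background on both arrays, means of detected probes, and keeping outlier spots. Named genes are the up to 20 with the largest differences in each direction among those 2-fold or more and well above background on both arrays whose other probes do not differ oppositely by over 1.5-fold, up to 4 of each list, and 13 set genes; others were singled out after their values were seen. Members and lists (41 pathway, 7 marker) were chosen with earlier results of these data known. Some genes of these lists are not reported here.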

Additional observations from a re-analysis of the deposited data

Results flagged for a closer look

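Among genes well above background on all 4 arrays, those below were at least 1.5-fold apart in opposite directions in the pairs without and with PA, which was the reason to single them out; they are 6 of the 10 such genes lower without PA and all 5 of those higher, the other 4 not being well above background on every array. Each pair is 1 array a side, and the difference between pairs was not tested. All those named lie at control levels under 4, where the SD of a difference between single spots is 0.24 or more. Lower without PA and higher with it were 2310035P21Rik (-0.61 and 0.80), AK029272 (-0.94 and 0.98), B930068K11Rik (-0.78 and 0.62), D4Ertd681e (-0.76 and 0.67), ENSMUST00000215103 (-0.75 and 1.04) and Gm40091 (-0.64 and 0.75). Higher without PA and lower with it were AK084807 (0.72 and -0.78), Gulo (0.66 and -0.70), Mcoln3 (0.70 and -1.14), Mipol1 (0.81 and -0.59) and Ppp1r16b (0.71 and -0.64).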

How the results depend on the processing

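With the normexp background, which adds an offset of 50 and so shrinks differences of dim genes, 19 genes were at least 2-fold higher and 8 lower, 106 and 21 at 1.5-fold, and 27 genes past 2-fold differed the same way with PA (main values 97, 22, 420, 234 and 111). All 97 higher and 22 lower genes kept their direction under it. With no filter on dim probes (26793 genes) these counts were 623, 492, 1557, 1210 and 683. The other 5 alternatives left each count within 1.5 times. Of 58 named genes past 2-fold, all kept their direction under every alternative run and 30 stayed past 1.5-fold. Of 19 list medians past 0.1, 17 kept their direction; that of the cornified envelope list (0.15) was -0.0114 without the filter, and that of the endothelial markers (-0.12) was 0.0169 with normexp. No scaling moved the median of all genes by over 0.1. No paired analysis was possible because each group has 1 array. Leaving out a replicate was not possible for the same reason. Differences under the spot SD of a gene's level cannot be read at this signal over background.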
